A study of Mus musculus with 13 samples.

Results

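This account concerns the 10 mouse genes of the MHC class II pathway that were listed by name: Ciita, the class II chain genes H2-Aa, H2-Ab1 and H2-Eb1, the peptide-exchange genes H2-DMa, H2-DMb1, H2-DMb2, H2-Oa and H2-Ob, and Cd74. All 10 were found among 21887 protein-coding genes of the mouse build mm10. MHC class II molecules carry peptides from the endosomes of B cells, dendritic cells and macrophages to the cell surface, where CD4+ T cells read them. CIITA, the class II transactivator, does not bind DNA itself. It is recruited by factors on the class II promoters and switches on the whole set of genes. B cells express class II molecules and lose them as they become antibody-secreting cells, and BLIMP1 (encoded by Prdm1) is known as a repressor of Ciita in that step.

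The binding sites of BLIMP1 were located by ChIP-seq against GFP. Every group, of strain C57BL/6, was homozygous for a knock-in that puts EGFP on the N-terminal end of BLIMP1, and no untagged group was analysed here. Day 2 and day 6 primordial germ cell-like cells (d2 and d6 PGCLC) were grown from knock-in embryonic stem cells through 36 hours as epiblast-like cells. The d2 cells then had LIF and BMP4 (500 ng/mL) and were sorted for KIT. The d6 cells had LIF, BMP4, BMP8a (500 ng/mL), EGF (50 ng/mL) and SCF (100 ng/mL) and were sorted for integrin beta-3 and SSEA1. Primordial germ cells (PGC) at E12.5 came from the gonads of embryos, sorted for SSEA1, with 1 male and 1 female library that stand here for 1 cell type. Intestinal epithelium came from the small intestine of E16.5 embryos (GFP and EPCAM), photoreceptor precursors from the retina at postnatal day 4 (GFP). Plasmablasts were B cells given IL-4 (2 ng/mL) and LPS (10 ng/mL) for 3 days and sorted for GFP and CD138. The 12 libraries make 6 cell types with 2 libraries each. Whether the replicates of a cell type came from separate animals or cultures is not stated in the labels.

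Each library is given as summits, 1 position for the top of each peak. Summits carry no height and no expression value, so the sorted cell types could not be checked against their marker genes. Lists held from 7998 summits (intestinal epithelium replicate 1) to 76185 (d6 PGCLC replicate 1), with 40750 and 45122 in the plasmablast libraries. Read depth is unknown, and a longer list reaches more genes. Neighbouring summits with gaps of up to 200 bp, from whichever library, form 1 region. Binding in a cell type asks for a summit of each of the 2 libraries within the region. A gene was called when a bound region lay in it or within 5 kb of its ends, unless another window is named.

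BLIMP1 was bound at 9 of the 10 genes in plasmablasts, all but H2-DMb1, where 49.4% of all protein-coding genes were called. In d6 PGCLC 5 genes were called (Ciita, H2-Aa, H2-DMa, H2-Oa and Cd74), against 26.3% of all genes. In d2 PGCLC 2 were called (Ciita and H2-Aa), against 26.0%. E12.5 PGC (18.8% of all genes), intestinal epithelium (16.1%) and photoreceptor precursors (20.6%) each had 1 gene called, and in all 3 it was H2-DMa. The share of the listed genes was thus above that of all genes in plasmablasts and d6 PGCLC. The d6 PGCLC count depended on the setting. It fell to 3 with the gene alone (19.4% of all genes) or 1 kb flanks (22.1%), and with merging at 100 bp. In the other 4 cell types, 1 or 2 genes of 10 lay near the share of all genes, and no depletion is read from these counts. The median of the 10 genes was 3.0 bound regions in plasmablasts, 0.5 in d6 PGCLC and 0 in the other 4, and the median of all genes was 0 in each cell type. The genes were chosen with results of these data known, and no test was made on these counts.

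**Figure D1:**
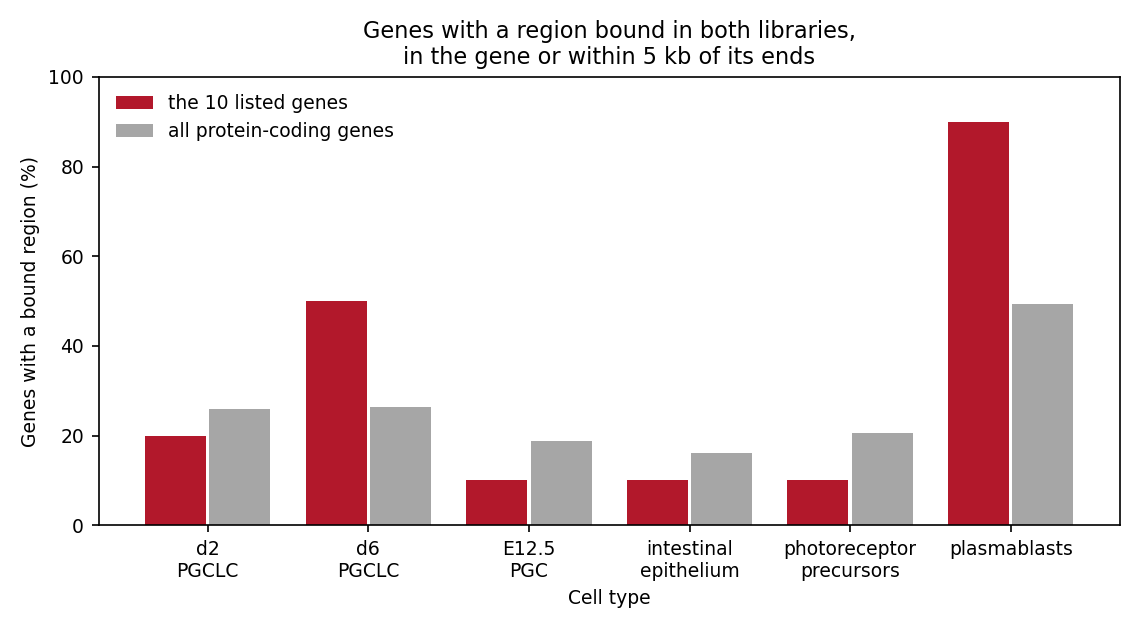
Percentage of genes (vertical axis) with a region bound in both libraries, in the gene or within 5 kb of its ends, for the 10 listed genes (red) and all 21887 protein-coding genes (grey) in 6 cell types. Plasmablasts have 9 of the 10 listed genes called against 49.4% of all genes.

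The longest list did not hold the most summits at these genes. The d6 PGCLC replicate 1 list, longer than either plasmablast list, held 20 summits in or within 5 kb of the 10 genes, each summit counted once, against 62 and 56 in the plasmablast libraries. Per 10000 summits of the list this was 2.63 in d6 PGCLC replicate 1 and 15.21 and 12.41 in plasmablast replicates 1 and 2. Among the other 9 libraries the value ran from 0.72 (photoreceptor precursor replicate 2) to 6.6 (intestinal epithelium replicate 2), below both plasmablast libraries. This did not hold gene by gene. At H2-DMa the intestinal epithelium libraries had 3.751 and 5.778 per 10000 summits, against 2.699 and 2.216 in plasmablasts. At H2-Aa d6 PGCLC replicate 2 had 1.298, against 0.736 and 0.443 in plasmablasts. At H2-Oa it had 1.298, against 1.227 and 0.886. At the remaining members no library of another cell type lay above either plasmablast library. The d6 PGCLC replicate 1 library had a summit in this window at 61.1% of all genes, and the plasmablast libraries at 57.1% and 59.4%.

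**Figure D2:**
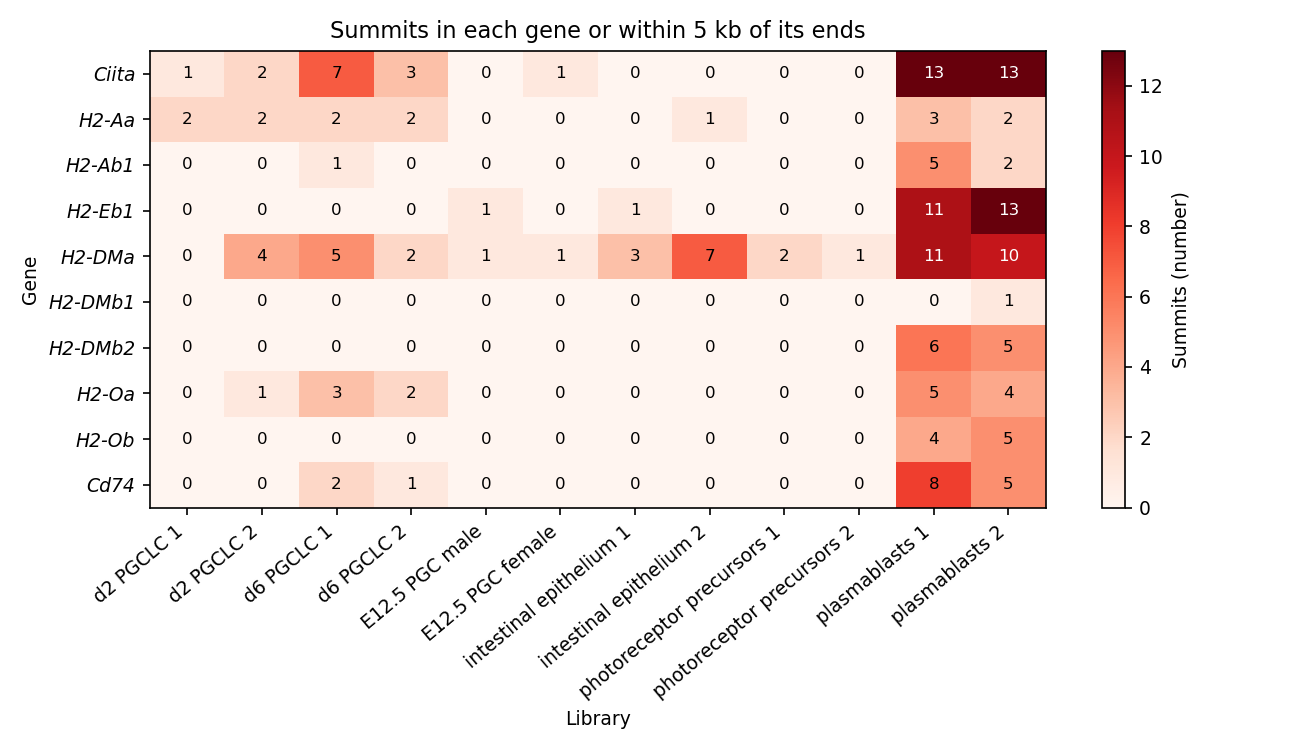
Number of summits in each gene or within 5 kb of its ends (number and colour) for 10 genes (rows) in 12 libraries (columns). The plasmablast columns hold counts above 0 for every gene except H2-DMb1 in replicate 1, and Ciita has 13 in each.

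Ciita lies on chromosome 16 at 10480014 to 10531064, a span of 51.1 kb, and had more bound regions in plasmablasts than in any other cell type. Both plasmablast libraries listed 13 summits in or within 5 kb of Ciita. The d6 PGCLC libraries listed 7 and 3, the d2 PGCLC libraries 1 and 2, and the female E12.5 PGC library 1. The male E12.5 PGC, both intestinal and both photoreceptor precursor libraries listed 0. The plasmablast counts thus lay above those of all 10 other libraries, also per 10000 summits of a list (3.19 and 2.88, against at most 1.947, in d6 PGCLC replicate 2). Of these summits 6 regions were bound in plasmablasts, 3 in d6 PGCLC and 1 in d2 PGCLC. At least 6 plasmablast-bound regions were found at 2.16% of all genes, of whatever length, and at least 3 bound regions in d6 PGCLC at 2.92%.

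Of the 6 plasmablast-bound regions of Ciita, 5 lay inside the gene and 1 outside it, and none within 1 kb of an end. Measured from the lower-coordinate end, the 2 libraries had summits at -4.0 kb (5 bp apart), 9.7 kb (40 bp apart), 12.7 and 12.6 kb (112 bp apart), 16.2 kb (21 bp apart), 19.3 kb (13 bp apart) and 22.0 and 22.1 kb (36 bp apart). The first is outside the gene and the other 5 are inside it. No library of any cell type had a summit within 1 kb of either end. Plasmablast replicate 1 had 12 of its 12 summits inside Ciita on the lower-coordinate side of the midpoint, and replicate 2 had 10 of 12. Ciita is known to have several alternative promoters. The gene table used here gives the span of the gene without its separate first exons or its strand, so no site is assigned to a promoter, exon or intron.

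Most of these sites were not restricted to plasmablasts. Only the regions at 12.6 and 16.2 kb (10492591 to 10492703, and 10496199 to 10496220) had no summit in another cell type. The region at 9.7 kb (10489641 to 10489827) held summits of 7 libraries: both d2 PGCLC, both d6 PGCLC, the female E12.5 PGC and both plasmablast libraries. It was bound in d2 PGCLC, d6 PGCLC and plasmablasts. The region at 19.3 kb (10499315 to 10499463) was bound in d6 PGCLC and plasmablasts, and no other library had a summit there. The regions at -4.0 and 22.0 kb had in addition a summit of d6 PGCLC replicate 1 alone. A further region at 8.9 kb (10488920 to 10489022) was bound in d6 PGCLC and held no plasmablast summit.

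Outside Ciita, a region at -14.6 kb (10465373 to 10465434) went the other way. It held summits of 8 libraries within 61 bp: both d2 PGCLC, both d6 PGCLC, the male and female E12.5 PGC and both intestinal libraries. Neither plasmablast nor photoreceptor precursor libraries had a summit in it. No other region within 50 kb of Ciita was bound in intestinal epithelium or E12.5 PGC. Photoreceptor precursors had no summit within 50 kb of Ciita at all, and their nearest lay 130.0 and 129.9 kb away. On the other side, plasmablasts had 3 bound regions beyond the upper-coordinate end. Those at 10542116 to 10542224 and 10542909 to 10542936 lie in the neighbouring gene Dexi (10530207 to 10543054), and that at 10545243 to 10545458 lies across the lower-coordinate end of Clec16a (10545309). Within 50 kb of Ciita, d6 PGCLC replicate 1, the longest list, and the 2 plasmablast libraries listed 16 summits each. In this wider window the raw count thus no longer set plasmablasts apart from that library. Bound regions within 50 kb still numbered 9 in plasmablasts, against 4 in d6 PGCLC and 2 in d2 PGCLC. E12.5 PGC and intestinal epithelium had 1 each and photoreceptor precursors 0.

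**Figure D3:**
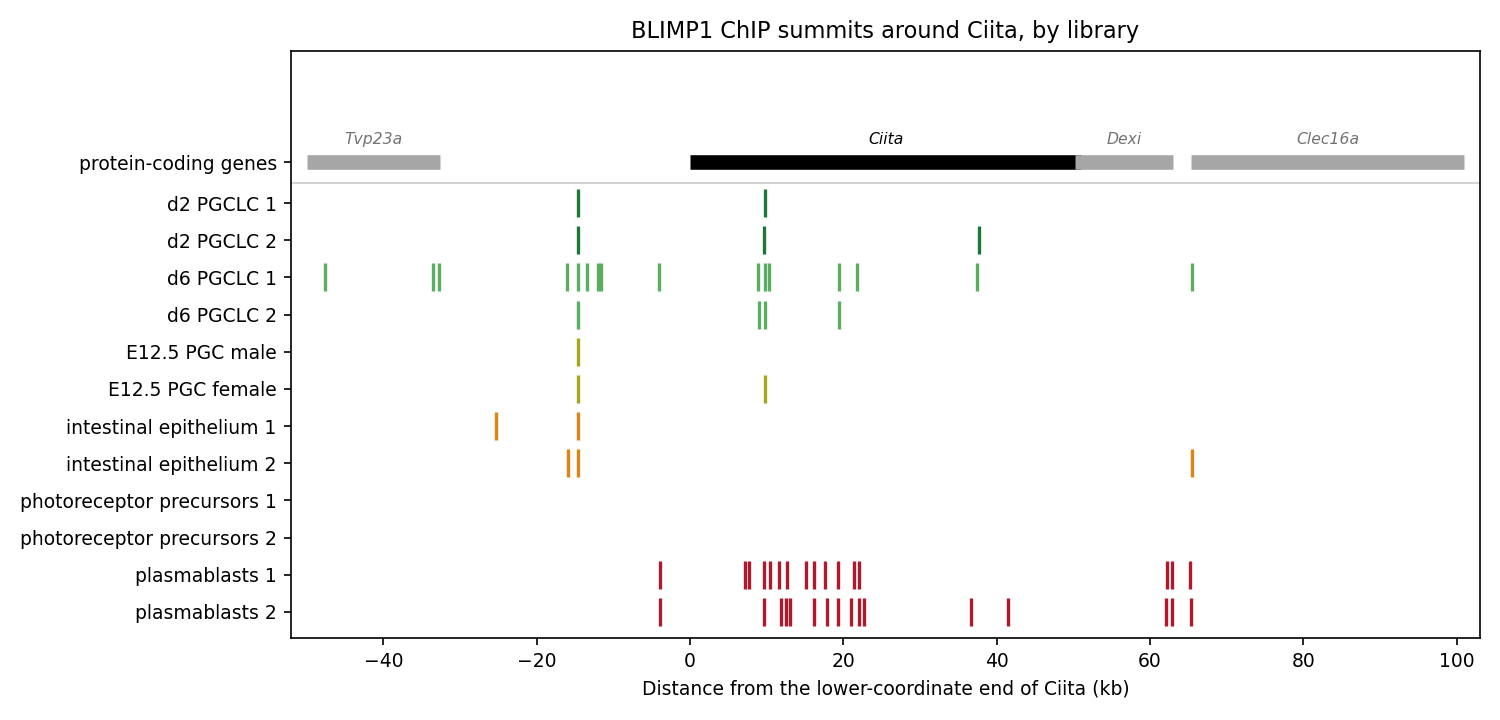
Summits (vertical ticks) of 12 libraries (rows) within 50 kb of Ciita, by distance in kb from its lower-coordinate end, with protein-coding genes above (Ciita black, neighbours grey). Plasmablast ticks inside Ciita lie between 7.1 and 22.7 kb except for 2 of replicate 2 at 36.6 and 41.5 kb, and the ticks at -14.6 kb belong to 8 libraries without plasmablasts.

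The other class II genes except Cd74 lie on chromosome 17, between 34092379 (H2-Oa) and 34316674 (H2-Eb1). Among them lie Psmb9, Tap1, Psmb8 and Tap2, genes of the class I peptide pathway. The reference promoters of members are shown first, for their letters alone. No bound region of any cell type lay within the printed stretches. Plasmablast replicate 1 alone had a summit in those of H2-Eb1 and H2-Aa, and no library had one in those of H2-Oa and H2-Ob. RefSeq promoters (GRCm38.p6, which has the coordinates of mm10) were matched for 7 of the 10 genes, in 8 entries of 300 bases. Ciita, H2-Ab1 and Cd74 had no entry and were not searched. The 250 bases before the start are printed for H2-Oa and H2-Ob, where plasmablasts had a bound region just after the start. They are also printed for H2-Eb1, the chromosome 17 member with the most plasmablast summits, and for H2-Aa. Of the 7 genes with an entry, H2-Aa alone had the longer BLIMP1 motif. All are printed 5′ to 3′ on the strand of the gene. Capitals mark GAAAG or its reverse complement CTTTC, letters of the BLIMP1 site, and CCAAT or its reverse complement ATTGG, the letters of the Y box that the factor NF-Y recognises in class II promoters. They cover chr17:34092129-34092378 (H2-Oa, plus strand), chr17:34238655-34238904 (H2-Ob, plus), chr17:34305617-34305866 (H2-Eb1, plus) and chr17:34287824-34288073 (H2-Aa, minus).
H2-Oa: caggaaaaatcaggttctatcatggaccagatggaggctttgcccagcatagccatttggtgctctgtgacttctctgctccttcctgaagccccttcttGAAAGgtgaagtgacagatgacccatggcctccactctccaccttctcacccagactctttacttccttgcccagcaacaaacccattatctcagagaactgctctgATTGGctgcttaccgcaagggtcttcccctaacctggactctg
H2-Ob: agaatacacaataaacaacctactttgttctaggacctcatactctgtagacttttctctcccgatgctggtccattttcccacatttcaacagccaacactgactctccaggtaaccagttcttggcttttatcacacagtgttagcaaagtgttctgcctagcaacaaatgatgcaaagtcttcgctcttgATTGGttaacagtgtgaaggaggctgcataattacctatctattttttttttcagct
H2-Eb1: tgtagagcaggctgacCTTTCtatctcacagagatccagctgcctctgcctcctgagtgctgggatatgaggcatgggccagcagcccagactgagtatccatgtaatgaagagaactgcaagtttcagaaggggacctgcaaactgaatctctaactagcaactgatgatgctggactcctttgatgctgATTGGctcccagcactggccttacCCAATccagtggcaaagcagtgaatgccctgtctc
H2-Aa: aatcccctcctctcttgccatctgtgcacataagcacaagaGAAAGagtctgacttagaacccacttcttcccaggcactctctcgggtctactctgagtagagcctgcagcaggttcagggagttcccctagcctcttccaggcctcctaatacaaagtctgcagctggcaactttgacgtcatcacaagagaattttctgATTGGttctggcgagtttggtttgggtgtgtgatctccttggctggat

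All 7 genes with an entry held CCAAT on either strand in at least 1 entry of 300 bases. Over all 21263 promoter entries of protein-coding genes the share was 38.2%. In H2-Oa, H2-Ob, H2-Eb1, H2-Aa and H2-DMb1 the match lay 43, 57, 59, 48 and 61 bases before the start, and H2-Eb1 had a second match 35 bases before it. In H2-DMb2 it lay 90 bases before the start and in 1 entry of H2-DMa 198 bases before it. GAAAG on either strand was present in 5 of the 7 genes (H2-Aa, H2-DMa, H2-DMb1, H2-Eb1 and H2-Oa), and in 55.0% of all entries. The longer AGNGAAAG, in which GAAAG is contained, was present in H2-Aa alone, 212 bases before the start, and in 8.07% of all entries. Neither motif of the BLIMP1 site was found in the H2-Ob or H2-DMb2 window.

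H2-Eb1, which encodes the beta chain of the I-E molecule (34305867 to 34316674), had 11 and 13 plasmablast summits in or within 5 kb of it. The male E12.5 PGC and the intestinal epithelium replicate 1 library had 1 each, and the other 8 libraries 0. In plasmablasts 6 regions were bound, with lower-coordinate edges at -4.6, -2.4, -0.9, 2.3, 4.2 and 6.0 kb from the start, and none of the 6 held a summit of another cell type. Only plasmablasts bound it. C57BL/6 mice lack the alpha chain of I-E, and H2-Ea stands in the gene table as a pseudogene.

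H2-Aa and H2-Ab1 encode the alpha and beta chains of the I-A molecule. H2-Aa (34282744 to 34287823) had 3 and 2 plasmablast summits, and 2 in each of the 4 PGCLC libraries. Intestinal epithelium replicate 2 had 1 summit there and the other 5 libraries 0, so that plasmablasts and PGCLC overlapped at this gene. Its 1 plasmablast-bound region (34286547 to 34286783) held summits of 6 libraries and was bound in d2 PGCLC and d6 PGCLC as well. The plasmablast summits there fell on the same position. A second region, at 34286087 to 34286236, was bound in d2 PGCLC and held no plasmablast summit. At the start of H2-Aa, plasmablast replicate 1 had a summit 136 bases before it, inside the printed sequence, but replicate 2 had none in that window, and no region there was bound. H2-Ab1 (34263227 to 34269418) had 5 and 2 plasmablast summits and 1 in d6 PGCLC replicate 1, with 0 in the other 9 libraries. It had 1 plasmablast-bound region, at 34264264 to 34264285, which no other cell type shared.

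The H2-DM heterodimer loads peptides onto class II molecules, and H2-O restrains it in B cells. H2-Oa (34092379 to 34095234) had 5 and 4 plasmablast summits, 3 and 2 in the d6 PGCLC libraries, 1 in d2 PGCLC replicate 2 and 0 in the other 7 libraries. Its plasmablast-bound region at the start (34092534 to 34092684, with summits 305 and 155 bases after the start) held no other library. The other, at 34098816 to 34098998, also held summits of d2 PGCLC replicate 2 and d6 PGCLC replicate 1. The d6 PGCLC call rests on a different region, at 34097397 to 34097588. H2-Ob (34238905 to 34245908) had 4 and 5 plasmablast summits and 0 in all 10 other libraries. It had 3 plasmablast-bound regions, the nearest with summits 88 and 262 bases after the start.

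H2-DMb2 (34143229 to 34151553) had 6 and 5 plasmablast summits, and again none in the 10 other libraries. Of its plasmablast-bound regions, 1 had summits at -296 and -304 bases from the promoter table's start (34145249, inside the gene span), and the nearest summit of any other library was 6.4 kb from the gene. Its neighbour H2-DMb1 (34153191 to 34160229) had 1 summit, of plasmablast replicate 2, 181 bp outside the gene, and 0 in the 11 other libraries. The H2-DMb genes are close copies, whose promoter windows had 209 identical bases over 270 aligned positions (77.4%). Reads that fit both copies may be lost or placed at either. Whether this bears on the difference between H2-DMb1 and H2-DMb2 was not tested.

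H2-DMa (34119693 to 34139101) was the member with summits in the largest number of libraries, 11 of 12, all but d2 PGCLC replicate 1. The plasmablast libraries had 11 and 10 summits, intestinal epithelium 3 and 7, d6 PGCLC 5 and 2, d2 PGCLC 0 and 4, photoreceptor precursors 2 and 1, and E12.5 PGC 1 each. One region, at 34120531 to 34120924, held summits of these 11 libraries and was bound in all cell types but d2 PGCLC. It lies where H2-DMa overlaps Brd2 (34112019 to 34122814), a widely expressed chromatin reader. It is inside the H2-DMa gene span, which begins at 34119693, but before both H2-DMa starts of the promoter table (34122832 and 34125518). The calls of H2-DMa in E12.5 PGC and photoreceptor precursors rest on that region alone. Intestinal epithelium also had a bound region at 34118226 to 34118251 and d6 PGCLC one at 34122340 to 34122474, both within Brd2. The plasmablast-bound regions at 34136667 to 34136839 and 34138419 to 34138504 lie near the upper-coordinate end, outside Brd2. Of these, the second held no other library and the first a summit of d6 PGCLC replicate 1. The 6 plasmablast-bound regions of the H2-DMa window include 3 that also lie in the 5 kb window of H2-DMb2 and are counted for both genes.

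**Figure D4:**
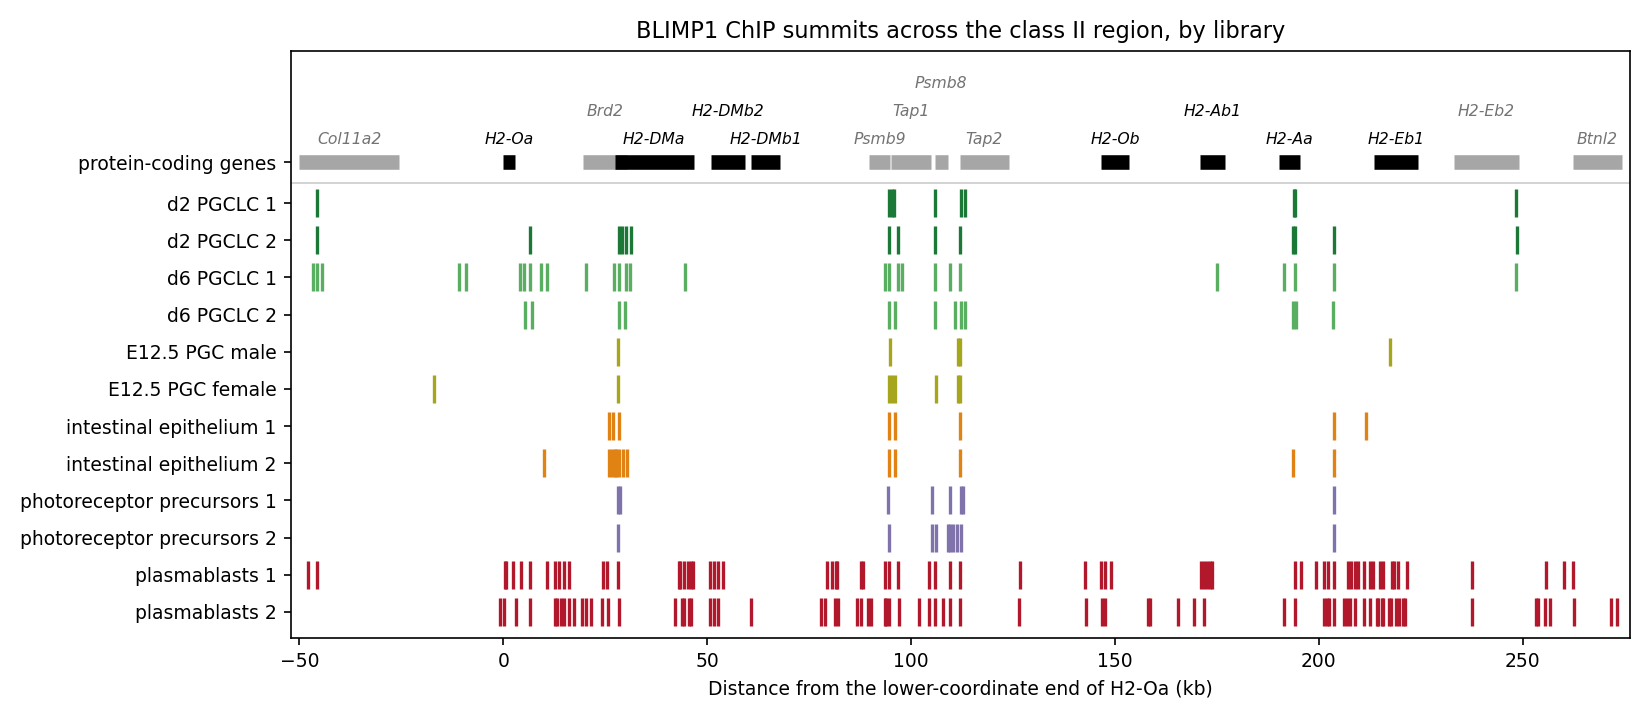
Summits (vertical ticks) of 12 libraries (rows) across the class II region of chromosome 17, by distance in kb from the lower-coordinate end of H2-Oa, with protein-coding genes above (listed genes black, others grey). Plasmablast ticks are seen at H2-Ob, H2-Ab1, H2-Aa and H2-Eb1, with the largest number at H2-Eb1 and few at H2-Aa. Ticks of other cell types are seen at the H2-DMa and Brd2 overlap, at Psmb9, Tap1, Psmb8 and Tap2, at H2-Aa (PGCLC) and between H2-Aa and H2-Eb1. Plasmablasts have ticks at these places too. A few ticks of other cell types also lie beside H2-Oa and in or beside H2-Ab1 and H2-Eb1.

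Cd74 encodes the invariant chain, which escorts class II molecules and blocks their groove until they reach the endosome. It lies on chromosome 18 (60803849 to 60812652) and had 8 and 5 plasmablast summits, 2 and 1 in the d6 PGCLC libraries and 0 in the other 8. The 3 plasmablast-bound regions held no summit of another cell type. At 1 of them, 323 bp outside the lower-coordinate end, both libraries listed the same position, 60803526, and the others lay inside the gene. The region bound in d6 PGCLC (60815513 to 60815572) was a different one, 2861 bp outside the upper-coordinate end. A region 11.7 kb beyond that end (60824350 to 60824430) was bound in d2 PGCLC, d6 PGCLC and E12.5 PGC, with no plasmablast, intestinal or photoreceptor precursor summit.

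Counted once each, 29 plasmablast-bound regions lay in or within 5 kb of the 10 genes, 20 of them inside a gene. The 2 plasmablast libraries had their nearest summits 70.0 bp apart at the median region. Of the 29 regions, 21 (72.4%) held no summit of another cell type, against 51.8% of the 23218 plasmablast-bound regions of the genome. The share differed among the loci: 2 of 6 at Ciita, 16 of 20 at the chromosome 17 genes and 3 of 3 at Cd74. All 8 that were shared held a summit of d6 PGCLC replicate 1, the longest list.

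As whole genes, 2 of the 10, H2-DMb2 and H2-Ob, were bound in plasmablasts with no summit of any other cell type in the 5 kb window, a state of 3.97% of all genes. Within 1 kb of either end, on either side of it, 6 genes were called in plasmablasts (33.9% of all genes): H2-Eb1, H2-DMa, H2-DMb2, H2-Oa, H2-Ob and Cd74. Of these 5, all but H2-DMa, had no summit of another cell type there (7.36% of all genes). In that window the other cell types had H2-DMa or nothing: 1 of 10 in d6 PGCLC (8.97%), E12.5 PGC (5.81%), intestinal epithelium (7.00%) and photoreceptor precursors (9.43%), and 0 in d2 PGCLC (8.43%). Ciita, H2-Aa and H2-Ab1 had no plasmablast-bound region in it. The bound region of H2-Ab1 began 1037 bp from an end, just outside the window, and the plasmablast summits of the H2-Aa region lay 1276 bp from one.

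In the gene alone, 9 of the 10 were called in plasmablasts (37.5% of all genes), 3 in d6 PGCLC (19.4%), 2 of them also in d2 PGCLC (19.3%), and 1 in each of E12.5 PGC (14.1%), intestinal epithelium (11.2%) and photoreceptor precursors (15.3%). With 1 kb beyond each end the counts of the listed genes were the same, against 44.8%, 22.1%, 21.9%, 15.9%, 13.6% and 18.0% of all genes in the same order. In either window 4 genes, H2-DMb2, H2-Oa, H2-Ob and Cd74, were bound in plasmablasts with no summit of another cell type, a state of 5.30% of all genes for the gene alone and 4.90% with 1 kb.

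With 50 kb on each side, the class II genes share their windows with each other and with Psmb9, Tap1, Psmb8 and Tap2. All 10 genes were called in plasmablasts (70.0% of all genes), d2 PGCLC (53.5%) and d6 PGCLC (53.5%), 9 in intestinal epithelium (35.9%) and photoreceptor precursors (41.7%), and 7 in E12.5 PGC (42.2%). None was bound in plasmablasts without a summit of another cell type (0.859% of all genes). Of the regions behind these calls on chromosome 17, 3 of 7 in d2 PGCLC, 3 of 8 in d6 PGCLC, 4 of 6 in photoreceptor precursors, 3 of 6 in intestinal epithelium and 3 of 4 in E12.5 PGC lay at Psmb9, Tap1, Psmb8 or Tap2. In plasmablasts it was 7 of 37. The regions at 34186762 to 34187193 and 34204438 to 34204544 held summits of all 12 libraries. Between H2-Aa and H2-Eb1, a region at 34295970 to 34296234 held summits of 9 libraries and was bound in d6 PGCLC, intestinal epithelium, photoreceptor precursors and plasmablasts.

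Further lists of genes of the pathway and of neighbouring genes were counted in the same 5 kb window. The shares of all genes called in it were 49.4% (plasmablasts), 26.3% (d6 PGCLC), 26.0% (d2 PGCLC), 16.1% (intestinal epithelium), 18.8% (E12.5 PGC) and 20.6% (photoreceptor precursors). Among 7 factors that assemble on class II promoters, 5 were called in plasmablasts, 2 in photoreceptor precursors, 4 in intestinal epithelium and 1 in each germ cell type, against 49.4%, 20.6% and 16.1% of all genes in the first 3 and 18.8% to 26.3% in the germ cell types. Rfx5, the DNA-binding subunit of RFX, had a summit in all 12 libraries and was bound in all 6 cell types. Nfya and Nfyb, subunits of NF-Y, were bound in intestinal epithelium and plasmablasts, and Nfyb in photoreceptor precursors as well. Creb1, which binds the X box region, was bound in plasmablasts alone, although 4 libraries of other cell types listed 1 summit each.

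Of 6 regulators known to act on Ciita, all 6 were called in plasmablasts, 2 in d2 PGCLC, 3 for both E12.5 PGC and d6 PGCLC, and 1 for both intestinal epithelium and photoreceptor precursors. All genes had 49.4% called in plasmablasts and 26.0% in d2 PGCLC. Irf2, an interferon regulatory factor, was bound in all but d2 PGCLC, with 17 and 16 plasmablast summits. Pax5, the B cell identity factor, had 12 plasmablast-bound regions and 2 in each of d2 PGCLC, d6 PGCLC and E12.5 PGC. Irf8 was bound in plasmablasts (4 regions), d6 PGCLC and E12.5 PGC (1 each). Spi1, which encodes PU.1, was bound in plasmablasts (2 regions) and d2 PGCLC (1 region). Irf4, a factor of B cell and plasma cell differentiation, is named here after its values were seen: it had 21 and 14 plasmablast summits, in 10 bound regions, and 0 in the other 10 libraries.

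Of 8 genes for class II peptide processing and turnover, 7 were called in plasmablasts, 2 in photoreceptor precursors, 2 in d2 PGCLC and 1 in d6 PGCLC. The count was 0 for intestinal epithelium and E12.5 PGC. The plasmablast count stands beside 49.4% of all genes, and those of photoreceptor precursors and d2 PGCLC are near the 20.6% and 26.0% of all genes. Marchf1, a ubiquitin ligase that removes class II molecules from the surface, was bound in plasmablasts, d2 PGCLC and photoreceptor precursors. Lgmn, an endosomal protease, was bound in d2 PGCLC, d6 PGCLC and plasmablasts. Ctsl, a cathepsin, was bound in photoreceptor precursors and not in plasmablasts, whose libraries had 2 and 1 summits there. Ifi30, the thiol reductase of endosomes, was bound in plasmablasts alone, although d6 PGCLC replicate 1 listed 3 summits there and the female E12.5 PGC and intestinal epithelium replicate 2 libraries 1 each. Ctss, the cathepsin that trims the invariant chain, is likewise named after its values were seen: it had 2 and 3 plasmablast summits and 0 elsewhere.

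Of 5 protein-coding genes on the side of Ciita or further along, 4 were called in plasmablasts and 2 in each of d6 PGCLC, E12.5 PGC and photoreceptor precursors. The count was 1 in d2 PGCLC and 0 in intestinal epithelium. Of all genes 49.4% were called in plasmablasts, 16.1% in intestinal epithelium and 18.8% to 26.3% in the other 4. Dexi, Clec16a and Tvp23a lie within 50 kb of Ciita, and Socs1 and Nubp1 do not. Tvp23a was bound in no cell type, with 4 summits in d6 PGCLC replicate 1 and 0 in the plasmablast libraries. Clec16a (10545309 to 10744878), a longer gene than Ciita, had a summit in all 12 libraries and 9 plasmablast-bound regions. Socs1, a cytokine signalling inhibitor, had 4 bound regions in each of d2 PGCLC, d6 PGCLC and plasmablasts. Dexi had 3 plasmablast-bound regions, and Nubp1 had 1. Of 7 genes beside the class II genes on chromosome 17, 7 were called in plasmablasts, 6 in intestinal epithelium and 5 in each of the other 4 cell types, beside 49.4% and 16.1% of all genes in the first 2 and 18.8% to 26.3% in the other 4. Psmb8, Psmb9, Tap1 and Tap2 each had summits in all 12 libraries and were bound in all 6 cell types. They lie side by side and their 5 kb windows overlap, so these calls are not independent. The region at 34186762 to 34187193 counts for both Psmb9 and Tap1, and that at 34204438 to 34204544 for both Psmb8 and Tap2. Each of these regions was bound in all 6 cell types. Brd2, which overlaps H2-DMa, likewise shares the region at 34120531 to 34120924 with it. In E12.5 PGC, intestinal epithelium and photoreceptor precursors, Psmb8, Psmb9, Tap1 and Tap2 were thus called where none of H2-Ob, H2-Ab1, H2-Aa and H2-Eb1 was.

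Genes with a like pattern were sought by the number of summits in the gene or within 5 kb over the 12 libraries, among 11956 genes with summits in both plasmablast libraries. The 5 closest to Ciita were BC049352, A630001G21Rik and Pik3ap1 (Pearson r = 0.992 each), then H2bc11 and Hdac7 (r = 0.990 each). Pik3ap1 had 27 and 30 plasmablast summits, 15 and 5 in d6 PGCLC and at most 3 in the other libraries. Hdac7 had 9 in each plasmablast library, 4 and 2 in d6 PGCLC and at most 2 elsewhere. These values are a description over libraries of unequal list length, which all genes share.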

How the data were processed

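The 12 deposited summit lists, 1 per ChIP library, were used, and the input library of male E12.5 PGC was left out. The tools and build that the authors name, per the submitters' processing notes, are MACS2 2.1, Bowtie 1.1.2, cutadapt 1.7.1, Trim Galore 0.3.7 and mm10. The deposited lists give the chromosome and position of each summit, and no height or score. Not given in the sources used here are the read depth, the control, the calling threshold, the treatment of reads that fit several places and whether positions count from 0 or 1. Positions may therefore be off by 1 bp.

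Groups came from the labels. Only chromosomes 1 to 19, X and Y entered. Regions came from single-linkage merging with a gap of at most 200 bp. Distances were taken to the gene spans of the RefSeq table of GRCm38.p6, which has the coordinates of mm10 but no strand or exons. Promoter windows (250 bases before to 50 after a start) came from RefSeq. In motif positions the start is base 0 and the first base of a match in the printed direction is given. The members and gene lists were chosen with earlier results of these data known. Named genes were all 10 members, up to 4 per further list by number of libraries with a summit, and the 5 most like Ciita. Irf4, Ctss and Tvp23a lie outside that rule and were named after their values were seen. From the list of Ciita regulators 1 gene is not reported here. No test was run on the members, so counts stand beside those of all 21887 genes. The region calls were tested on simulated lists. Alternatives were the merging distance, the bound rule, the window and leaving out each library. Python 3.11.15, numpy 2.4.6 and pandas 2.3.3 were used.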

Additional observations from a re-analysis of the deposited data

How the results depend on the processing

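The number of genes called in plasmablasts (9 as reported, of at most 10) lay between 9 and 10 with 1 library left out. Under the alternatives for the merging distance, the bound rule and the window it was 9 or 10 as well, with 1 exception. Within 1 kb of either end it fell to 6. The count of plasmablast-bound regions depended more on the rule. With a summit of either library counted as binding it rose to 20 at Ciita and 89 at the 10 genes, and the genes called rose to 4 in d2 PGCLC, 3 in E12.5 PGC and 3 in intestinal epithelium. These follow from asking for 1 library in place of 2. With 1 library left out in turn, the other defining its cell type, the ranges were 6 to 13 regions at Ciita, 29 to 62 at the 10 genes, 9 to 10 genes in plasmablasts, 2 to 4 in d2 PGCLC, 1 to 2 in intestinal epithelium, 5 to 6 in d6 PGCLC, 1 in photoreceptor precursors, 1 to 2 in E12.5 PGC, and 2 to 3 bound in plasmablasts alone. The Ciita regions numbered 13 without plasmablast replicate 1 and 13 without replicate 2, those of the 10 genes 56 and 62. The 4 genes of d2 PGCLC came without its replicate 1, the 2 of E12.5 PGC when either of its libraries was left out, and the 2 of intestinal epithelium without either replicate. Genes called in d6 PGCLC fell to 3 with merging at 100 bp, with the gene alone and with 1 kb flanks. Genes bound in plasmablasts alone numbered 4 with the gene alone or 1 kb flanks, 5 within 1 kb of either end and 0 with 50 kb flanks. Within 1 kb of either end, 0 genes were called in d2 PGCLC and 1 in d6 PGCLC, with 0 plasmablast-bound regions at Ciita and 9 at the 10 genes. With 50 kb flanks 7 genes were called in E12.5 PGC, 9 for each of photoreceptor precursors and intestinal epithelium, and all 10 for d6 PGCLC and d2 PGCLC, and 53 plasmablast-bound regions lay around the 10 genes. With both libraries anywhere in the window, region counts are not defined and were not computed. No paired analysis was possible because no result comes from a test and the labels do not say what a shared replicate number stands for. Without read depth, a library with no summit at a gene shows only that none was listed there.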
